A study of Homo sapiens with 4 samples.

Results

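The nuclear pore complex genes were the 32 protein-coding genes whose symbol was NUP followed by a digit, or was TPR, RANBP2, NDC1, POM121, POM121C, RAE1, SEH1L, SEC13 or AAAS, among 51740 listed genes. They were picked by name and biotype, so that no measured value decided which genes belonged. All 32 were among the 23333 genes with an adjusted p-value, of which 15336 were protein-coding. RNA was measured in HEK293T, a human embryonic kidney cell line, and the comparison asked how the RNA of the genes that build the pore divides between nucleus and cytoplasm. Every library came from wildtype cells crosslinked with formaldehyde. The groups were the nuclear fraction and the cytoplasmic fraction, each with 2 biological replicates, so that the 4 libraries shared genotype and treatment and differed in fraction. The RNA is that of 1 cell line, and no library from cells without crosslinking was part of the comparison.

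The nuclear pore complex is a large ring of proteins, the nucleoporins, that is set in the nuclear envelope. Scaffold rings and membrane proteins anchor it, nucleoporins with phenylalanine-glycine repeats line its channel, filaments reach into the cytoplasm, and a basket reaches into the nucleus. Import and export receptors carry proteins and RNA through the channel, and the small GTPase Ran gives their traffic its direction. The mRNAs of the nucleoporins themselves leave the nucleus through the same pores.

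Each gene was described by 3 quantities. The first was its mean normalized count, a level, averaged over the libraries of either fraction. The others were the log2 fold change of cytoplasmic over nuclear level, a difference, and the standard error (SE) of that difference from the deposited DESeq2 fit. No value of a single library was given, so the spread between the 2 replicates of a fraction enters only through the SE, and whether the libraries of the fractions overlap for a gene cannot be read from these data. A call required a DESeq2 adjusted p-value no larger than 0.01, with the direction taken from the sign of the fold change. Reads in introns were counted together with reads in exons, so that unspliced RNA was part of every value. The same mass of RNA, 400 ng, entered each library, so that no value is an amount per cell. In bulk fractions, fewer cells with a transcript and less of it per cell cannot be told apart.

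The scaling of the fractions moved every difference by the same amount. The deposited log2 fold changes had a median of -0.12 over all tested genes and 0.11 over the tested protein-coding genes. When the fractions were scaled to equal totals of normalized counts, each difference dropped by 0.66, and the result is given below as the equal-totals log2 fold change. As deposited, the normalized counts of all genes summed to 18136040 in the nuclear and to 28705052 in the cytoplasmic means, so that a deposited fold change does not compare shares of the counted RNA of a fraction, whereas an equal-totals value does. The 32 pore genes together held 0.52% of the nuclear and 0.407% of the cytoplasmic total, although their summed deposited means were 94277 and 116691. The lowest values of the table implied library totals of 21567507 to 24481541 counts. The RNAs chosen as checks went with the labels, since MALAT1 (-3.47 ± 0.13 SE) and NEAT1 (-3.09 ± 0.13) were higher in the nuclear fraction, and GAPDH, RPS2, RPL7A and ACTB, with log2 fold changes of 2.68 to 3.78, lay on the cytoplasmic side.

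Of the 32 nuclear pore genes, 16 (50%) were higher in the cytoplasmic fraction, 8 (25%) were higher in the nuclear fraction and 8 were not called. Among all tested genes 25.9% had a cytoplasmic call and 26.5% a nuclear call, and among tested protein-coding genes 35.6% and 28.4%. The pore genes were well covered, with a mean normalized count over 500 for 31 of them, and of the 8197 protein-coding genes above that level 46.6% had a cytoplasmic and 34.4% a nuclear call. As deposited, the share of cytoplasmic calls thus lay close to that of protein-coding genes of similar coverage. With equal totals it lay below that of such genes, at 9.38% against 30.8%. The median log2 fold change was 0.30 for the pore genes and 0.26 for those 8197 genes. With equal totals, 3 pore genes (9.38%) had a cytoplasmic call and 17 (53.1%) a nuclear call, beside 22.4% and 42.6% of protein-coding genes and 30.8% and 50.8% of those with a mean over 500, and the median of the pore genes turned to -0.36. All 8 genes called in the nuclear direction were also called there with equal totals, and SEC13, AAAS and NUP50 were the 3 called in the cytoplasmic direction under both scalings.

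The members differed widely among themselves. Their log2 fold changes ran from -2.41 for NUP210L to 2.18 for SEC13, that is, from a level 5.32-fold higher in the nuclear fraction to one 4.52-fold higher in the cytoplasmic fraction. In 5 of the 7 groups below, members were found on both sides of 0.

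**Figure D1:**
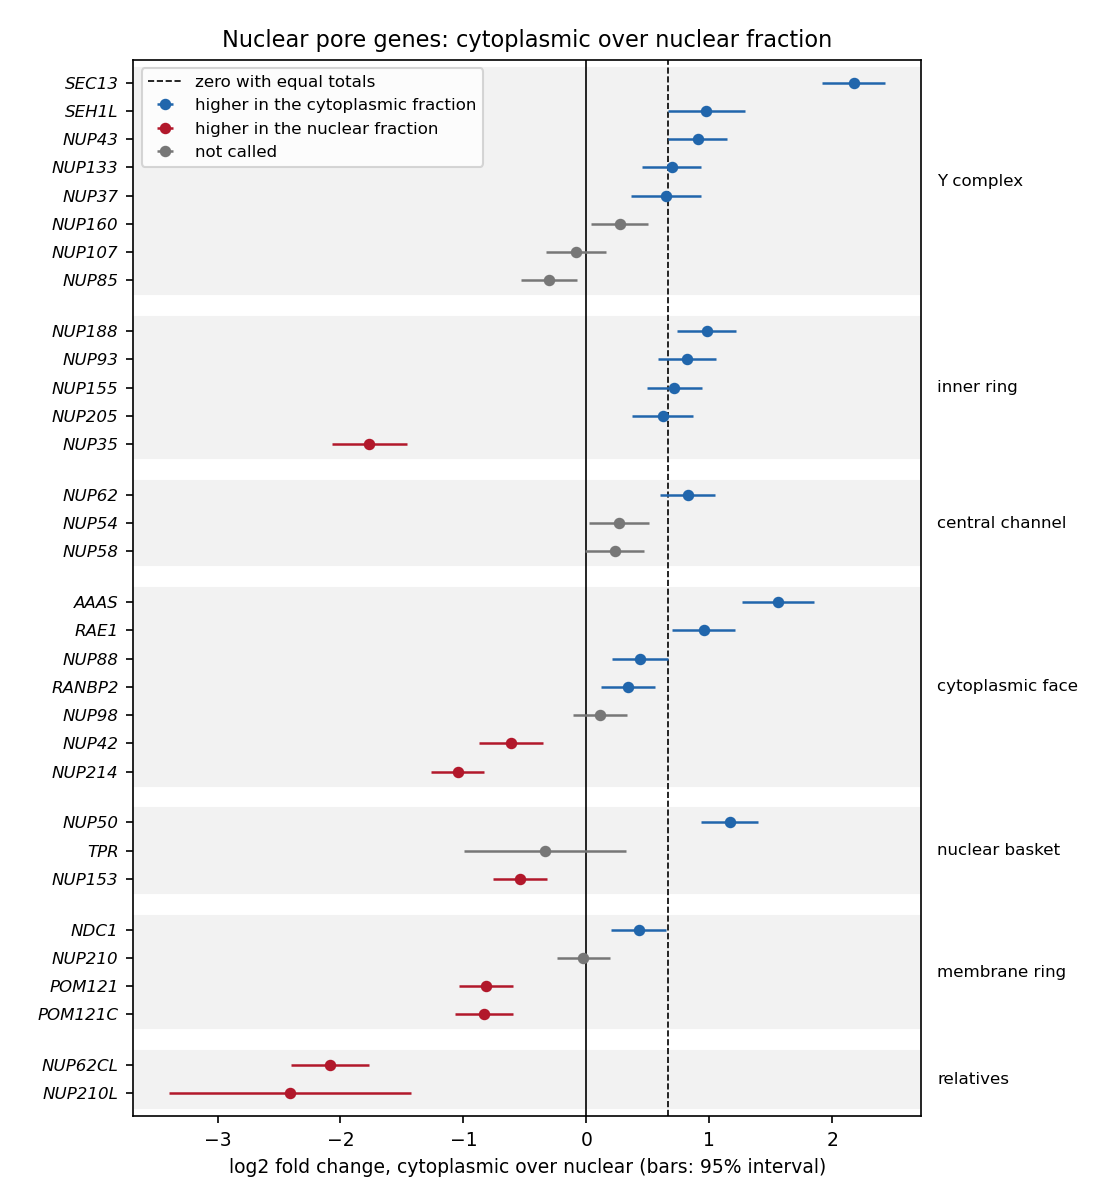
Log2 fold change of cytoplasmic over nuclear level (x axis) for each of the 32 nuclear pore genes (y axis), grouped by place in the pore. Points are the deposited DESeq2 estimates and bars their 95% intervals; blue genes were called higher in the cytoplasmic fraction, red genes in the nuclear fraction, grey genes in neither. The solid line is 0 as deposited and the dashed line is where 0 lies with equal totals (0.66); 7 genes lie to the right of both lines with their whole bars, of which SEC13, AAAS and NUP50 were also called with equal totals and NUP188, RAE1, NUP43 and SEH1L were not, and the 8 red genes lie to the left of both.

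The Y complex forms the outer rings of the scaffold. Of the 8 members placed in it, 5 were higher in the cytoplasmic fraction, none was higher in the nuclear fraction at the threshold and 3 were not called. Their median log2 fold change was 0.67, or 0.01 with equal totals. Of protein-coding genes with a mean over 500, 46.6% had a cytoplasmic and 34.4% a nuclear call as deposited. AHCTF1, a pore gene that was not among the members, had a nuclear call and is described below. NUP98, whose transcript also encodes the Y complex protein NUP96, was placed at the cytoplasmic face. SEC13, which encodes a β-propeller protein that is also part of the COPII vesicle coat, lies on chromosome 3 from 10293131 to 10321112 (hg38) and had the highest value of all members. Its mean normalized count was 623 in nuclear and 2817 in cytoplasmic RNA, a log2 fold change of 2.18 ± 0.13 SE (DESeq2 adjusted p = 8.65e-61). It was also called with equal totals, at 1.51. SEH1L, another β-propeller that is shared with the GATOR complex of nutrient signalling, had means of 826 and 1625 in the nuclear and cytoplasmic fractions and a log2 fold change of 0.98 ± 0.16. NUP43 had means of 2874 and 5388, with a log2 fold change of 0.91 ± 0.12. Both of these peripheral propellers lost the call with equal totals, at 0.31 and 0.24. NUP37, a further propeller, had 609 nuclear and 954 cytoplasmic normalized counts and a log2 fold change of 0.65 ± 0.15, which was -0.02 with equal totals.

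The long scaffold proteins of the Y complex were less uniform. NUP133, at the base of the stem, had a mean normalized count of 2807 in nuclear and 4537 in cytoplasmic RNA and was called in the cytoplasmic direction at 0.69 ± 0.12 (DESeq2 adjusted p = 3.09e-08), but not with equal totals (0.03). Its neighbour in the stem, NUP107, had nearly equal means of 2466 and 2327, and its 95% interval ran from -0.32 to 0.16. The genes of this stem pair differed from each other by -0.78 (NUP107 minus NUP133, 95% interval -1.11 to -0.44, adjusted p = 1.2e-05 by a normal test on the DESeq2 standard errors), a difference that does not depend on the scaling. NUP160, in an arm of the Y, had means of 3779 and 4557 and a log2 fold change of 0.27 ± 0.12, which missed the threshold at a DESeq2 adjusted p of 0.0392. NUP85, in the other arm, had the lowest value of the members placed in the complex. It had 2946 nuclear and 2381 cytoplasmic normalized counts and a log2 fold change of -0.31 ± 0.12 (DESeq2 adjusted p = 0.0149). With equal totals NUP107, NUP160 and NUP85 were all called in the nuclear direction, at -0.75, -0.39 and -0.97, which for NUP160 is the opposite sign.

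The inner ring lies between the outer rings and holds the channel nucleoporins in place. Of its 5 genes, 4 were called higher in the cytoplasmic fraction and 1, NUP35, in the nuclear fraction, with a median log2 fold change of 0.72. With equal totals the median was 0.05, none was called in the cytoplasmic direction and NUP35 was still called in the nuclear direction. For comparison, 46.6% of protein-coding genes with a mean over 500 had a cytoplasmic and 34.4% a nuclear call as deposited. The ring has only 5 genes. NUP188 had means of 7161 in nuclear and 14111 in cytoplasmic RNA and a log2 fold change of 0.98 ± 0.12 (DESeq2 adjusted p = 5.66e-15). Its paralog NUP205 had means of 6061 and 9314 and a log2 fold change of 0.62 ± 0.13, which with equal totals was -0.04. The 2 large scaffold paralogs differed by -0.36 (NUP205 minus NUP188, 95% interval -0.70 to -0.01, adjusted p = 0.0585 by the same normal test), which missed the threshold.

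NUP155, a scaffold protein that contacts the membrane, had means of 6087 and 10006 in the nuclear and cytoplasmic fractions and a log2 fold change of 0.72 ± 0.11. NUP93, the linker that joins the inner ring to the channel nucleoporins, had 1868 nuclear and 3289.6 cytoplasmic normalized counts and a log2 fold change of 0.82 ± 0.12. Both were called as deposited, and both had equal-totals values near 0, at 0.05 and 0.15. NUP35, a small membrane-binding nucleoporin of the same ring on chromosome 2 from 183117513 to 183161680, went the other way. Its mean normalized count was 1328 in nuclear and 391 in cytoplasmic RNA, 3.4-fold higher in the nuclear one, with a log2 fold change of -1.76 ± 0.15 (DESeq2 adjusted p = 2.77e-29). Among the members, no other gene placed in the scaffold rings was called in the nuclear direction as deposited. AHCTF1, a pore gene that was not among the members, is described below.

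The channel is lined by 3 partner nucleoporins with phenylalanine-glycine repeats, NUP62, NUP54 and NUP58. NUP62 had means of 1910.2 in nuclear and 3379.8 in cytoplasmic RNA and was called in the cytoplasmic direction at 0.82 ± 0.11 (DESeq2 adjusted p = 2.3e-12), though not with equal totals (0.16). In GENCODE 44 the whole of its span, chromosome 19 from 49906825 to 49929764, is also covered by another annotated gene, IL4I1, and the authors removed stretches held by more than 1 gene before counting, so which part of NUP62 was counted is not known here. NUP54 had means of 1264 and 1518 and a log2 fold change of 0.26 ± 0.13 (DESeq2 adjusted p = 0.0587). NUP58 had means of 2747 and 3226 and a log2 fold change of 0.23 ± 0.12 (DESeq2 adjusted p = 0.0936). Neither was called as deposited, and with equal totals both were called in the nuclear direction, at -0.40 and -0.43.

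The cytoplasmic face carries the filaments on which exported mRNA is released. Of the 7 members placed in this group, 4 had a cytoplasmic call, 2 a nuclear call and 1 none. The median log2 fold change was 0.34, and -0.33 with equal totals. Protein-coding genes with a mean over 500 had a cytoplasmic call in 46.6% and a nuclear call in 34.4% as deposited. Each member was placed in 1 group only, and NUP98, a mobile nucleoporin, and RAE1, which binds it, were counted here. AAAS, which encodes the β-propeller ALADIN, had means of 788 in nuclear and 2323 in cytoplasmic RNA and a log2 fold change of 1.56 ± 0.15 (DESeq2 adjusted p = 7.8e-25). It was called with equal totals as well, at 0.90. RAE1, an mRNA export protein that binds NUP98, had means of 838 and 1622 and a log2 fold change of 0.95 ± 0.13, and was not called with equal totals (0.29). RANBP2, the large filament protein that binds Ran and acts as a SUMO ligase, had 4819 nuclear and 6083 cytoplasmic normalized counts. Its log2 fold change of 0.34 ± 0.11 was the smallest that was called (DESeq2 adjusted p = 0.00519), and with equal totals it was called in the opposite direction, at -0.33.

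NUP214 and NUP88 encode partners in 1 subcomplex at the cytoplasmic face that docks the mRNA export helicase. NUP214, on chromosome 9 from 131125573 to 131234663, had a mean normalized count of 5836 in nuclear and 2823 in cytoplasmic RNA, a log2 fold change of -1.05 ± 0.11 (DESeq2 adjusted p = 2.22e-21). NUP88 had means of 2095 and 2837 and a log2 fold change of 0.44 ± 0.12 in the other direction, which turned to -0.22 with equal totals. The genes of these protein partners differed by -1.49 (NUP214 minus NUP88, 95% interval -1.80 to -1.17, adjusted p = 4.37e-20 by the normal test), and NUP214 lay lower than NUP88 under either scaling. Other annotated genes on either strand cover 36.3% of the span of NUP214 and 45% of that of NUP88. Of the exonic sequence they cover 32.7% and 52.1%. The part of this overlap in the difference was not tested. Exonic overlap was also large for NUP54 (40.6%), POM121 (39.2%) and NUP37 (39.1%), so the part of these genes that was counted is not known either.

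NUP42, which helps the export factor GLE1 bind at the pore, was called in the nuclear direction, with 1259.5 nuclear and 823 cytoplasmic normalized counts and a log2 fold change of -0.61 ± 0.13 (DESeq2 adjusted p = 1.18e-05). NUP98, whose transcript encodes a mobile nucleoporin and, in 1 precursor with it, the Y complex protein NUP96, had means of 5006 and 5406. Its log2 fold change of 0.11 ± 0.11 was not called as deposited. Centred on the protein-coding median it was -0.0006, and with equal totals it was called in the nuclear direction at -0.55.

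**Figure D2:**
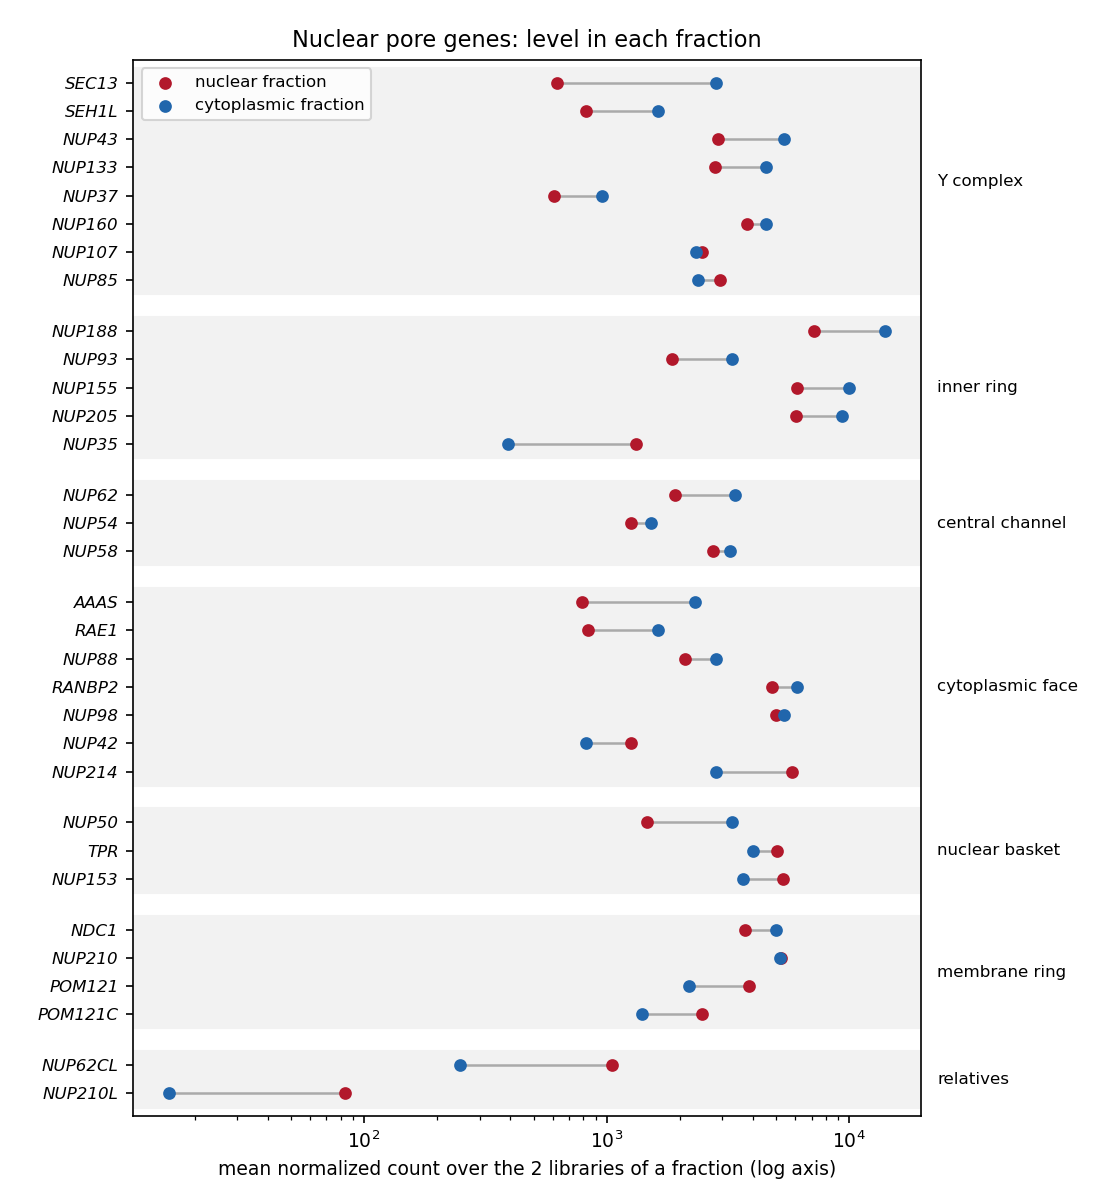
Mean normalized count (x axis, log scale) of each of the 32 nuclear pore genes (y axis) over the 2 nuclear libraries (red) and the 2 cytoplasmic libraries (blue), grouped by place in the pore; a grey line joins the fractions of a gene. Levels are not divided by gene length, so only the points of 1 gene may be compared: SEC13 goes from 623 to 2817 and NUP35 from 1328 to 391, and NUP210L is the only member with both means under 100.

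The nuclear basket is built on TPR and anchored by NUP153, and NUP50 is a mobile basket protein that helps release import cargo. Its 3 genes had 3 different outcomes. NUP50 had means of 1470.1 in nuclear and 3296 in cytoplasmic RNA and a log2 fold change of 1.16 ± 0.12 (DESeq2 adjusted p = 4.63e-22), and was called in the cytoplasmic direction with equal totals too (0.50). NUP153 had means of 5326 and 3659 and a log2 fold change of -0.54 ± 0.11 (DESeq2 adjusted p = 3.3e-06), higher in the nuclear fraction. TPR, on chromosome 1 from 186311652 to 186375693, had means of 5048 and 4003, but its log2 fold change of -0.33 had an SE of 0.34, and its 95% interval ran from -0.99 to 0.32. It was not called as deposited and was called in the nuclear direction with equal totals, at -0.997. TPR and NUP153 differed by 0.21 (95% interval -0.49 to 0.90), an interval that includes 0 and is wide because of the SE of TPR.

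The membrane ring holds the transmembrane nucleoporins. Of its 4 genes, 1 was called in the cytoplasmic direction, 2 in the nuclear direction and 1 in neither, with a median log2 fold change of -0.42, or -1.08 with equal totals. Among protein-coding genes with a mean over 500, the shares were 46.6% cytoplasmic and 34.4% nuclear as deposited. NDC1, a multipass protein needed for pore assembly, had means of 3711 in nuclear and 4983 in cytoplasmic RNA and a log2 fold change of 0.43 ± 0.11 (DESeq2 adjusted p = 0.00046), which turned to -0.24 with equal totals. NUP210, a glycoprotein with a large lumenal domain, had nearly equal means of 5253 and 5167, and a 95% interval of -0.24 to 0.19. With equal totals it was called in the nuclear direction, at -0.69. POM121 and POM121C, near-identical copies on chromosome 7, from 72879349 to 72951440 and from 75416786 to 75486299, were both higher in the nuclear fraction.

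POM121 had 3849.9 nuclear and 2184 cytoplasmic normalized counts and a log2 fold change of -0.82 ± 0.11. POM121C had 2481 and 1396 and a log2 fold change of -0.83 ± 0.12. The difference between the copies was 0.01 (95% interval -0.31 to 0.34), smaller than its SE of 0.17, and the part of shared reads in this likeness was not tested. Of the 100-base exonic windows of each gene, 46.1% in POM121 and 41.1% in POM121C occur at another place in hg38. These places are not only in the other copy. Windows of POM121 recur in NSUN5P1, POM121C and POM121B, among others, and windows of POM121C in POM121 and POM121B, among others. The coding sequences of the canonical transcripts of POM121 and POM121C (3750 and 2964 bases) aligned over 2955 bases, beginning at base 796 of POM121, and 39 of these bases differed (98.7% identical). The 100-base stretch with the most differences within 1 exon of each gene is shown to illustrate how little separates the copies, 5′ to 3′ on the coding strand, with the 7 differing bases in capitals. It covers coding bases 3004 to 3103 of POM121 (exon 11, chr7:72942997-72943096, plus strand) and 2215 to 2314 of POM121C (exon 13, chr7:75421938-75422037, minus strand), in hg38 and GENCODE 44.
POM121: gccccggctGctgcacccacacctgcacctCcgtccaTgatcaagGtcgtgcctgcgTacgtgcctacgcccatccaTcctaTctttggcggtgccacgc
POM121C: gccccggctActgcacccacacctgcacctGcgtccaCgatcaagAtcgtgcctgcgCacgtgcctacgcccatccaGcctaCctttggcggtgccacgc

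Among the other members, repeated exonic windows made up 15.8% of RANBP2, where copies lay in RGPD genes such as RGPD4, and 5.39% of NUP50, and at most 2.00% of each of the remaining genes. The values of POM121, POM121C and RANBP2 are therefore uncertain as values of a single gene, since the authors' counting could split or drop their reads. Without these 3 genes the median log2 fold change of the members was 0.43.

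NUP62CL and NUP210L are relatives of NUP62 and NUP210 and had the lowest log2 fold changes of all members. NUP62CL, an X-linked gene from 107123427 to 107206433, had 1056 nuclear and 249 cytoplasmic normalized counts, a log2 fold change of -2.09 ± 0.16 (DESeq2 adjusted p = 3.05e-37). NUP210L, on chromosome 1, was the only member with low coverage, at 83.4 nuclear and 15.7 cytoplasmic normalized counts, and its log2 fold change of -2.41 had an SE of 0.50 (DESeq2 adjusted p = 4.22e-06). Each differed from its widely expressed relative. NUP62 lay 2.91 above NUP62CL (95% interval 2.52 to 3.30, adjusted p = 4.22e-48 by the normal test on DESeq2 standard errors), and NUP210 lay 2.39 above NUP210L (interval 1.38 to 3.39, adjusted p = 7.92e-06). These tests covered 7 pairs of paralogs or protein partners, with p-values adjusted over the 7, and are approximate because both values of a pair came from the same libraries.

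Gene span set the background for these values. Across 12132 protein-coding genes with a mean over 50, longer span, from the first to the last exonic base in GENCODE 44, went with a lower log2 fold change, with a Spearman correlation across genes of -0.71. Across the 32 pore genes it was -0.49 with span, -0.47 with intron length, -0.28 with the number of exon blocks and -0.07 with exonic length. Across the 31 members with a mean over 50, which leaves out NUP210L, the values were -0.44, -0.42, -0.23 and -0.10 in the same order. These correlations are descriptions across genes, which share libraries and are not replicates. Median log2 fold changes of protein-coding genes went from 2.25 in the decile with the shortest spans (up to 6.66 kb) to -2.03 in the decile with the longest (from 191 kb). The pore genes had a median span of 64.0 kb, and 27 of the 32 were in the longer deciles, from the fifth upwards. Set against protein-coding genes of the same decile, 22 members lay above the median and 10 below, with a median difference of 0.43.

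The 4 large inner ring genes lay well above the level for their span. NUP93 spans 120 kb, and its log2 fold change of 0.82 stood beside a median of -0.89 for its decile, with 95.2% of the genes of that decile below it. NUP155 (83 kb) had 90.8% of its decile below it, NUP188 (59.4 kb) 88.7% and NUP205 (90.8 kb) 87.9%. SEC13 was higher still among its peers, since a median of 0.41 for its decile left 96.5% below its 2.18. NUP98, although not called, had 85.7% of its decile below it. At the other end, NUP35 spans 44.2 kb, where the median was 0.21, and its -1.76 had 4.7% of the decile below it. NUP42 was short, at 19.2 kb, and its -0.61 stood beside a median of 0.70, with 14.3% below. NUP62CL and NUP210L had 6.35% and 5.69% of their deciles below them. NUP153, in contrast, lay at the median for its span (48.6% below), so that its nuclear call was no departure from genes of like length. These ranks describe the deposited estimates, carry no test, and are the same with equal totals, since that scaling moves all genes alike.

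**Figure D3:**
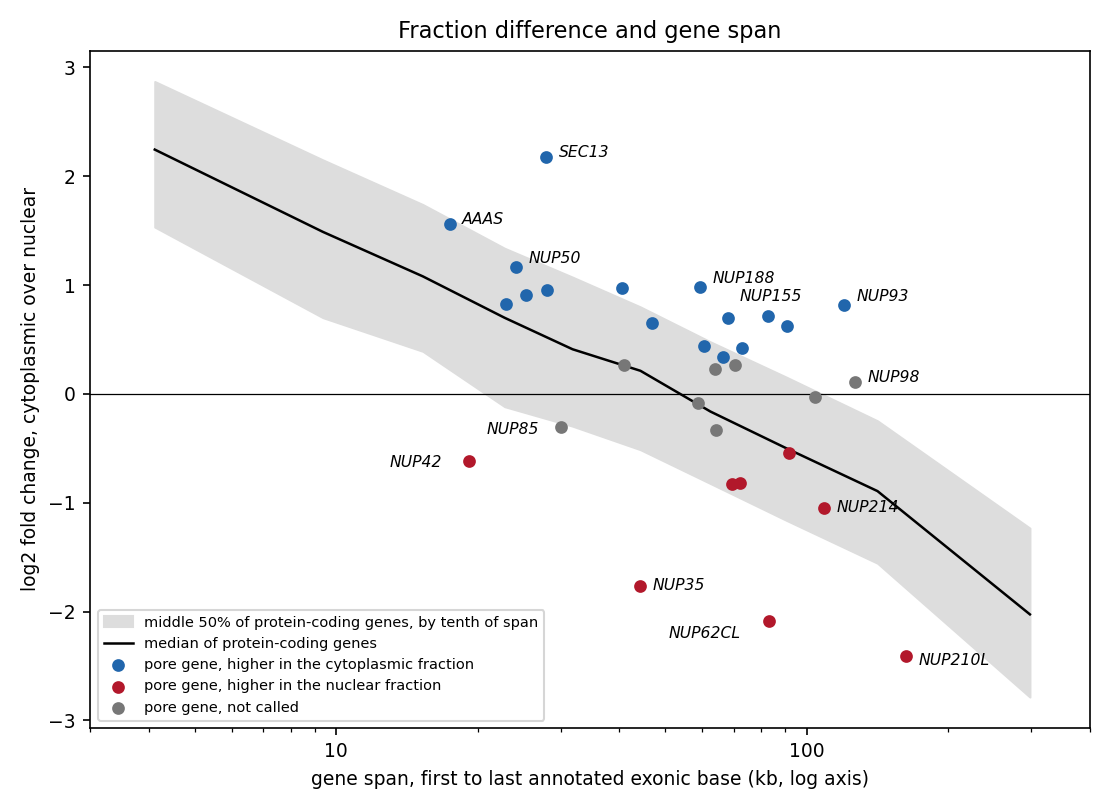
Log2 fold change of cytoplasmic over nuclear level (y axis) against gene span in kb (x axis, log scale) for the 32 nuclear pore genes, coloured by call. The black line joins the medians of protein-coding genes in deciles of span and the grey band their middle 50%. Among the genes above the band are NUP93, NUP155, NUP188, NUP205 and SEC13, and among those below it are NUP42, NUP35, NUP62CL and NUP210L.

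The precision of the values was nearly the same for all well-covered members but 1. For 30 members with a mean over 500 the SE of the log2 fold change was between 0.11 and 0.16, while that of TPR, with a mean normalized count of 4525 over all libraries, was 0.34. Among 5479 protein-coding genes with a mean over 1000 and a coding sequence in GENCODE 44, the median SE was 0.127 and the 99th percentile 0.172, and 20 genes including TPR had an SE at least as large as that of TPR. The SE of such a fit depends on the counts and on the dispersion fitted to the gene, and which library of TPR stood apart, if one did, cannot be read from the table. TPR had 36.5% A in its coding sequence, beside a median of 27% over these genes, and 145 of the 5479 (2.65%) had as much or more. Of the 144 other genes with such a share, 131 had an SE under 0.2. A part of base composition in the SE of TPR was not tested. The coding stretch of 100 bases with the most A within 1 exon is shown to illustrate the share, 5′ to 3′ on the coding strand with its 56 A in capitals. It covers coding bases 2041 to 2140 of 7092 (exon 17, chr1:186355441-186355540, minus strand, hg38).
TPR: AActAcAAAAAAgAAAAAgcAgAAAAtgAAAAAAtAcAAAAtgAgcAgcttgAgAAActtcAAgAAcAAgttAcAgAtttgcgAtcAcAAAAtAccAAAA

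**Figure D4:**
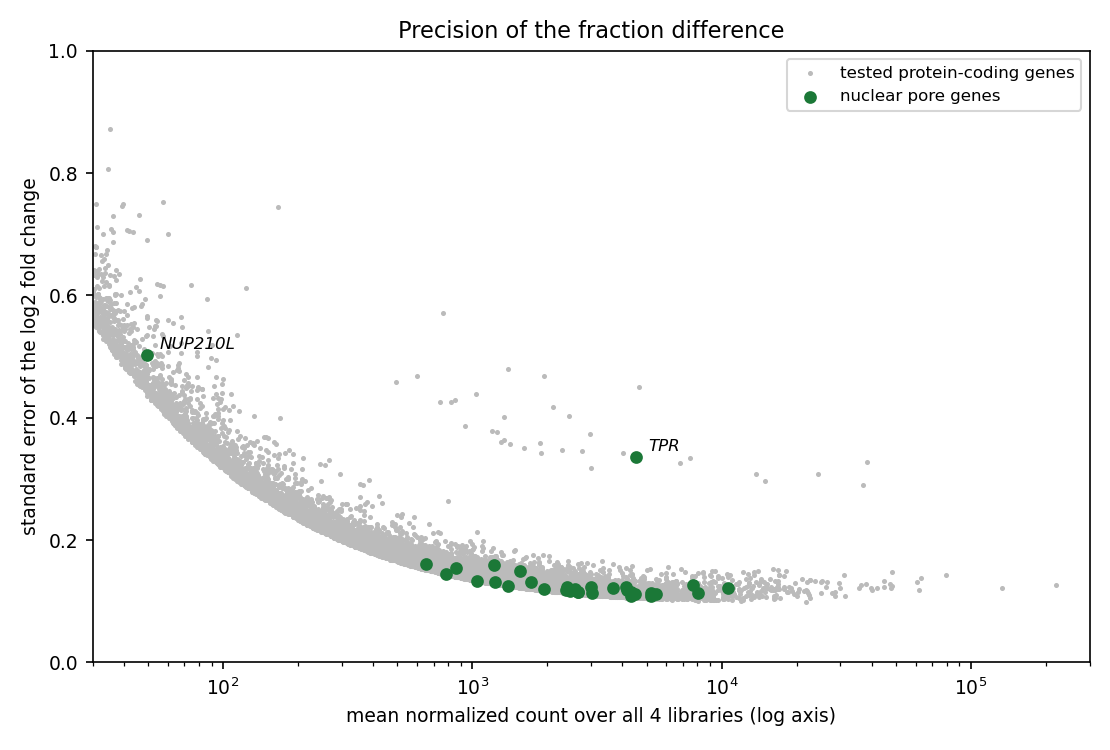
Standard error of the log2 fold change (y axis) against the mean normalized count over all 4 libraries (x axis, log scale) for tested protein-coding genes with a mean of at least 30 (grey) and the nuclear pore genes (green). TPR, at 4525 normalized counts and an SE of 0.34, lies above the other well-covered members, which lie between 0.11 and 0.16; NUP210L has the lowest mean and the largest SE of the set.

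Pore proteins with other names gave the same picture of unequal members. AHCTF1, which encodes ELYS, the protein that starts pore assembly on chromatin, had means of 3069 in nuclear and 1806 in cytoplasmic RNA and a log2 fold change of -0.77 ± 0.11 (DESeq2 adjusted p = 6.06e-11). GLE1, the export factor that works with NUP42, had 799 nuclear and 2439 cytoplasmic normalized counts and a log2 fold change of 1.61 ± 0.13 (DESeq2 adjusted p = 1.07e-32). Other annotated genes cover 47% of the exonic sequence of GLE1. Both genes kept their direction and call with equal totals, at -1.43 and 0.95.

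The genes whose products move cargo through the pore were described from 3 lists of 32 genes in all, of which 20 (62.5%) had a cytoplasmic call and 6 (18.8%) a nuclear call, beside the 35.6% and 28.4% of protein-coding genes. Of the 32, 30 had a mean over 500, and of all protein-coding genes above that level 46.6% and 34.4% were called. With equal totals the counts were 10 (31.2%) and 12 (37.5%), beside 22.4% and 42.6% of protein-coding genes, or 30.8% and 50.8% of those with a mean over 500. Of 18 import receptors, 9 had a cytoplasmic and 5 a nuclear call, with a median log2 fold change of 0.40, or -0.26 with equal totals. Of 7 export receptors, 5 had a cytoplasmic and 1 a nuclear call, with a median of 0.76, or 0.10 with equal totals. Of 7 genes of the Ran cycle, 6 were called in the cytoplasmic direction and none in the nuclear direction, with a median of 1.87, or 1.21 with equal totals. The Ran cycle genes are also short, with a median span of 25.7 kb.

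RAN, the GTPase itself, had means of 2876 in nuclear and 23638 in cytoplasmic RNA and a log2 fold change of 3.04 ± 0.12, above that of every pore gene. Its cofactors RANBP1 (2.65 ± 0.11) and RANGRF (2.64 ± 0.20) were next in that list. The import receptors with the highest called values were IPO5 (2.17 ± 0.11), KPNA2, an importin α (1.84 ± 0.13), and IPO4 (1.69 ± 0.13). Those with the lowest called values were IPO11 (-1.03 ± 0.12), TNPO2, a transportin (-0.70 ± 0.12), and KPNA5 (-0.52 ± 0.12). Among export receptors XPOT, which carries tRNA, had 0.98 ± 0.12, CSE1L, which returns importin α to the cytoplasm, 0.86 ± 0.11, and XPO5, which carries microRNA precursors, 0.78 ± 0.12, and these 3 lost their call with equal totals. Other annotated genes cover all of the exonic sequence of RANGRF (SLC25A35) and 86.2% of that of XPO5, so that, as for NUP62, the part of these genes that was counted is not known here. XPO1, the main receptor for proteins with a nuclear export signal, was called in the nuclear direction at -0.37 ± 0.10, with 8376 nuclear and 6473 cytoplasmic normalized counts. Every adjusted p-value behind these calls came from the same DESeq2 fit, and the largest among the transport genes named in this paragraph was that of XPO1, 0.000855.

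**Figure D5:**
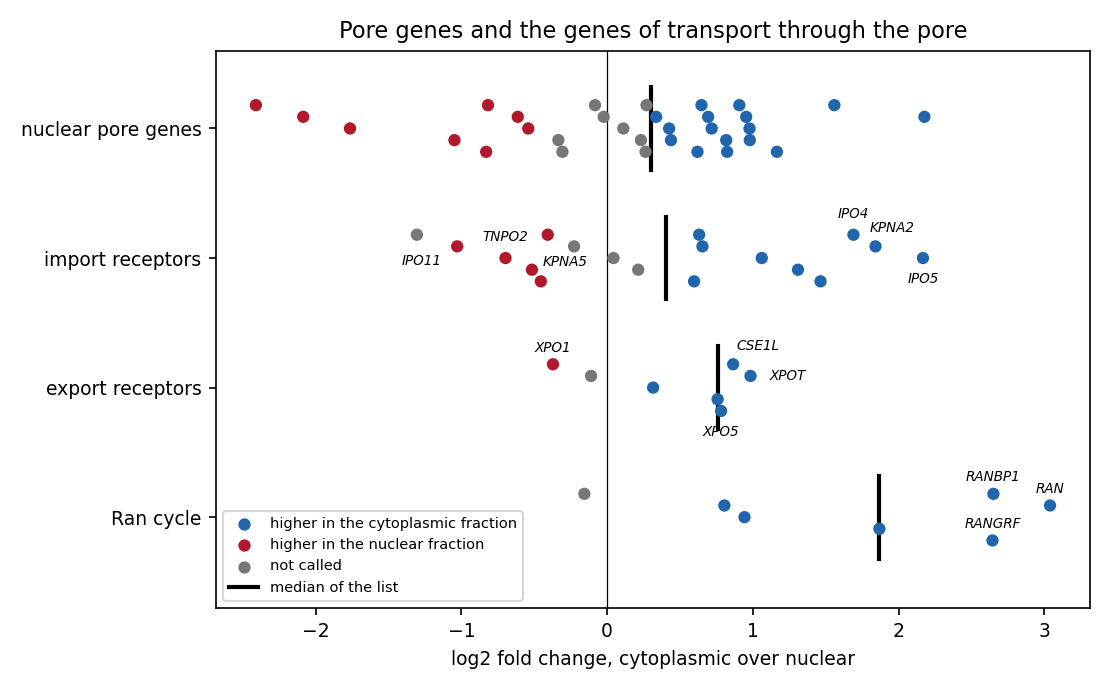
Log2 fold change of cytoplasmic over nuclear level (x axis) for the 32 nuclear pore genes, 18 import receptors, 7 export receptors and 7 Ran cycle genes (rows), 1 point a gene, coloured by call, with the median of each list as a bar. The medians are 0.30, 0.40, 0.76 and 1.87 as deposited, and with equal totals the first 2 turn negative; points are spread vertically only to keep them apart.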

How the data were processed

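RNA from 2 nuclear and 2 cytoplasmic fractions was sequenced by the authors after ribosomal RNA depletion. Per the submitters' processing notes and the study's methods, reads were aligned to hg38 with STAR and counted with featureCounts 2.0.2 over exons and introns, without stretches held by several genes, and the fractions were compared with DESeq2. The deposited table holds, for each gene, a normalized count signal averaged by the authors over all 4 libraries, a log2 fold change with its standard error, a Wald score, and a p-value with its Benjamini-Hochberg adjustment. These columns come from the authors' own fit, were used as deposited, and were the only measure of replicate error. Fraction means were computed from the mean and the fold change. Scaled fold changes were tested again from the deposited standard errors and adjusted over all tested genes. Library totals assume equal normalized sums in both libraries of a fraction. An edgeR count test, the first choice for counts, could not be run on this table. Spans, coding sequences and repeated 100-base windows came from GENCODE 44 on hg38, later than the annotation the authors counted with (Python 3.11.15, pandas 2.3.3, Biopython 1.88). The adjustment and scaling code was tested on simulated data. All members were named, and of the transport lists the 3 largest called values in each direction with a mean over 50, plus AHCTF1 and GLE1. The rule for the members used name and biotype only, but the members and lists were chosen with earlier results of these data known.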

Additional observations from a re-analysis of the deposited data

How the results depend on the processing

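Scaling the fractions to equal totals of normalized counts was the alternative that changed most. It took the pore genes called in the cytoplasmic direction from 16 to 3 and those called in the nuclear direction from 8 to 17, and the transport genes from 20 to 10 and from 6 to 12. The median of the pore genes turned from 0.30 to -0.36, that of the central channel from 0.26 to -0.40 and that of the cytoplasmic face from 0.34 to -0.33. Of the members, 9 reversed, namely NUP37 (-0.015), NUP205 (-0.043), NUP88 (-0.22), NDC1 (-0.24), RANBP2 (-0.33), NUP160 (-0.39), NUP54 (-0.40), NUP58 (-0.43) and NUP98 (-0.55), a further 8 lost and 4 gained a call in their own direction, and 11 were unchanged in direction and call. Centring on the protein-coding median reversed NUP98 alone (-0.0006), ended the calls of NUP88, NDC1 and RANBP2 and made NUP85 a nuclear call. A Bonferroni adjustment left 16 calls, 11 cytoplasmic and 5 nuclear, and an adjusted p-value of 0.05 gave 26. Leaving out POM121, POM121C and RANBP2 moved the median to 0.43, and the correlation with span of -0.49 became -0.066 with exonic length and -0.28 with exon blocks. No paired analysis was possible because libraries were not listed one by one. For the same reason edgeR and DESeq2 refits, another normalization, other low-count filters and leaving out each replicate in turn were not run.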

Other observations

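The importin α genes, which encode the adaptors between import cargo and importin β, were on both sides as well, with 2 cytoplasmic calls, 3 nuclear calls and 2 genes called in neither direction; these 7 genes were singled out after their values were seen. Over all tested protein-coding genes 35.6% had a cytoplasmic and 28.4% a nuclear call. KPNA2 had a log2 fold change of 1.84 ± 0.13 SE and KPNA6 0.60 ± 0.12, both called in the cytoplasmic direction in the DESeq2 table as deposited. KPNA1 (-0.46 ± 0.13), KPNA3 (-0.41 ± 0.13) and KPNA5 (-0.52 ± 0.12) were called in the nuclear direction, and KPNA4 (-0.23 ± 0.13) in neither. KPNA7 had a mean normalized count of only 4.2 and an SE of 1.53. With equal totals KPNA2 was still called in the cytoplasmic direction, at 1.18, KPNA6 was not called, at -0.07, and 4 of the 7 were called in the nuclear direction, KPNA4 now among them (-0.89), beside 22.4% and 42.6% of protein-coding genes. Other annotated genes cover 78.2% of the exonic sequence of KPNA6 and 68.1% of that of KPNA1.

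The 19 protein-coding genes other than TPR with a mean over 1000 and an SE at least that of TPR were also looked up after their values were seen. They included SMC3 (SE 0.35), RAD50 (0.34), CENPF (0.45), CEP290 (0.48), KTN1 (0.37), RFC1 (0.35) and CNTLN (0.36). Of the 19, 12 had an A share of the coding sequence at or above the 36.5% of TPR, and their median share was 37.2%, whereas 145 of all 5479 genes, TPR among them, had such a share. Most genes with as much A did not have a large SE, since 131 of the other 144 had an SE under 0.2. Others of the 19 were poor in A, such as SMAD6 (14.3%) and C12orf57 (18.6%). Whether base composition played a part in the spread of these genes was not tested.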
